A study of Mus musculus with 2 samples.

Results

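The genes described here are 9 mucin and trefoil factor genes of the mouse, taken as a fixed list of gene symbols and followed through the gene and transcript tables. All 9 were found among 43346 Ensembl gene entries, with 30 transcript models. They were split into 5 genes called gastric members here (Muc1, Muc5ac, Muc6, Tff1 and Tff2) and 4 called intestinal members (Muc2, Muc4, Muc13 and Tff3). These names are labels for the comparison, and not every member is particular to its organ. The study sequenced total RNA from intestine of healthy B6NCrl mouse embryos at embryonic day 15.5 (E15.5), for which the labels name no treatment, in 2 libraries that form 1 group. Replicate 1 was a pool of 78 embryos and replicate 2 a pool of 62, each of both sexes. Both pools carry the same donor identifier, and each library comes from tissue and not from sorted cells, so epithelium, muscle, nerve, vessels and any attached tissue were measured together. The comparisons are between the gastric and the intestinal members and between the libraries. With 2 libraries of 1 group no test over samples exists, so all values below are descriptions.

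Mucins are large glycoproteins that carry dense O-linked sugars on stretches rich in serine and threonine. Gel-forming mucins are secreted and build the mucus layer: Muc2 in the intestine, Muc5ac on the surface of the stomach and Muc6 in its glands. Membrane-bound mucins such as Muc1, Muc4 and Muc13 stay on the cell surface. Trefoil factors are small secreted peptides released together with mucins, Tff3 by goblet cells of the intestine, Tff1 by surface cells and Tff2 by gland cells of the stomach, and they aid the repair of the lining. In the mouse, Muc6, Muc2, Muc5ac and Muc5b lie in 1 cluster and the trefoil genes in another.

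The sequences of 4 start regions are shown because they belong to the most abundant mucin, which has a pair of annotated starts of very unequal use, and to 2 neighbouring gel-forming mucin genes of unequal level. Each is a RefSeq window on GRCm38.p6, written in the direction of transcription, from 250 bases before to 50 bases after the RefSeq start. RefSeq windows were found for 5 of the 9 members (Muc1, Muc2, Muc4, Muc6 and Muc13). Capitals mark matches on either strand to any of 7 short motifs, which may overlap each other. The core promoter motifs searched were TATAAA, the letters of the TATA box, together with GGGCGG, the letters of the GC box. For families of regulators expressed in gut epithelium, the letters searched were TTTAT for the CDX type, followed by AGATAA for the GATA type, then GTTAAT for the HNF1 type, further CAAAGT for the HNF4 type, and finally CAGCTG for the E-box type. The windows are Muc13 at the upstream start (chr16:33793787-33794086, plus strand), Muc13 at the downstream start (chr16:33794239-33794538, plus strand), Muc2 (chr7:141690090-141690389, plus strand) and Muc6 (chr7:141655344-141655643, minus strand).
Muc13 upstream start: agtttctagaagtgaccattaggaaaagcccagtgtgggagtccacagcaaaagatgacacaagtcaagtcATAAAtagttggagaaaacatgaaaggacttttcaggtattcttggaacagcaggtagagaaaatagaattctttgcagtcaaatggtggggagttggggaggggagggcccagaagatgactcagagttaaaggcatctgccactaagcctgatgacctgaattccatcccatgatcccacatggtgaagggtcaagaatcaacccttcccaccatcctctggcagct
Muc13 downstream start: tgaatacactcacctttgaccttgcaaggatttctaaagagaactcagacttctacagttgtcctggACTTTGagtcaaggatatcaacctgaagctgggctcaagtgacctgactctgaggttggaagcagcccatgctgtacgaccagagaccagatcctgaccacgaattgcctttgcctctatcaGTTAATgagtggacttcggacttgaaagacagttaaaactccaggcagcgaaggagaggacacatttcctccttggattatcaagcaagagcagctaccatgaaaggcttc
Muc2: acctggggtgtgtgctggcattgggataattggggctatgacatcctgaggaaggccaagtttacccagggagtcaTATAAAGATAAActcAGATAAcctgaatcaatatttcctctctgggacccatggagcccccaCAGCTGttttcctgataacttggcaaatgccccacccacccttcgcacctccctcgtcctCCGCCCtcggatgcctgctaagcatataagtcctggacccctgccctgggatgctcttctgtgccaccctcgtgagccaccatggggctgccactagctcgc
Muc6: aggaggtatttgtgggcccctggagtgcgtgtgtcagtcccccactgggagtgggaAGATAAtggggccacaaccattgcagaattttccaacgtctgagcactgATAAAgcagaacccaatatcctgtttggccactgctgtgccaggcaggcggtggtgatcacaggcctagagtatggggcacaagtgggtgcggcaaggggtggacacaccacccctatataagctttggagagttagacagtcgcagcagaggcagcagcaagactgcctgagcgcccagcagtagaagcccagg

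The Muc2 window holds TATAAA at position -174 from the RefSeq start, with CDX-type letters at -173 inside it, GATA-type letters at -169 that share its last base, and further CDX-type letters at -167 that overlap those. It also holds GATA-type letters at -159, an E-box at -112 and a GC box at -52. The Muc6 window holds GATA-type letters at -194 and CDX-type letters at -145. The downstream Muc13 window holds HNF4-type letters at -183 and HNF1-type letters at -61, and the upstream one only CDX-type letters at -179. The leading Muc13 model, Muc13-201, starts at -122 of the downstream window, so the HNF1-type letters lie downstream of that start. Of the windows not shown, those of Muc1 and Muc4 hold TATAAA at -31 and -36. Over all 32851 windows of this length, TATAAA occurred in 13.6%, the GC box in 35.7%, the CDX-type letters in 40.0%, the GATA-type letters in 11.2%, the HNF1-type letters in 7.10%, the HNF4-type letters in 14.4% and the E-box in 16.3%. The GC share was 46.3% and 47.0% in the Muc13 windows, 55.3% in that of Muc2 and 56.7% in that of Muc6, against a median of 52.7% over all windows. Such matches describe the letters only.

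Intestinal members far outweighed gastric ones, through Tff3 and Muc13. In TPM, a measure of transcript abundance that corrects for transcript length and library size, the summed level was 29.9 and 18.6 for the 5 gastric members in replicates 1 and 2, and 984 and 780 for the 4 intestinal members. Gastric members thus made up 2.64 ± 0.435% of the summed level of all 9 (SD, n = 2 libraries, as for every SD below). Muc1, which many simple epithelia express, held 16.4 and 8.62 TPM of the gastric sums. On the log2(TPM + 0.1) scale the median of the gastric members was 2.12 and that of the intestinal members 5.54, a difference of -3.41 ± 0.74, and the median of all detected genes was 3.96. The difference rested on the 2 most abundant intestinal members and was -0.048 with Tff3 and Muc13 left out. The remaining gastric and intestinal members overlapped in level.

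Of the 9 members, 7 had a TPM of 1 or more in each library, called detected here, as did 34.6% of all gene entries. Muc5ac and Muc6 were the members below it, and 3 of 5 gastric and 4 of 4 intestinal members passed. Tff3 and Muc13, 2 of the 9, exceeded 100 TPM in each library, as did 3.77% of all entries. The order by TPM was the same in both libraries: Tff3, Muc13, Muc1, Muc2, Tff1, Tff2, Muc4, Muc6 and Muc5ac. Of the 8 neighbouring steps in that order, only the ranges of the 2 library values of Muc1 and Muc2 overlapped. Other steps were not firm in replicate 2. There Tff2 and Muc4 had 2.07 and 2.05 TPM, with overlapping deposited bounds (1.37 to 2.88 and 1.88 to 3.40). Their posterior mean TPM had the other order, 2.10 and 2.59. The bounds of Muc2 and Tff1 also overlapped there (6.87 to 10.0 and 6.04 to 9.31).

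**Figure D1:**
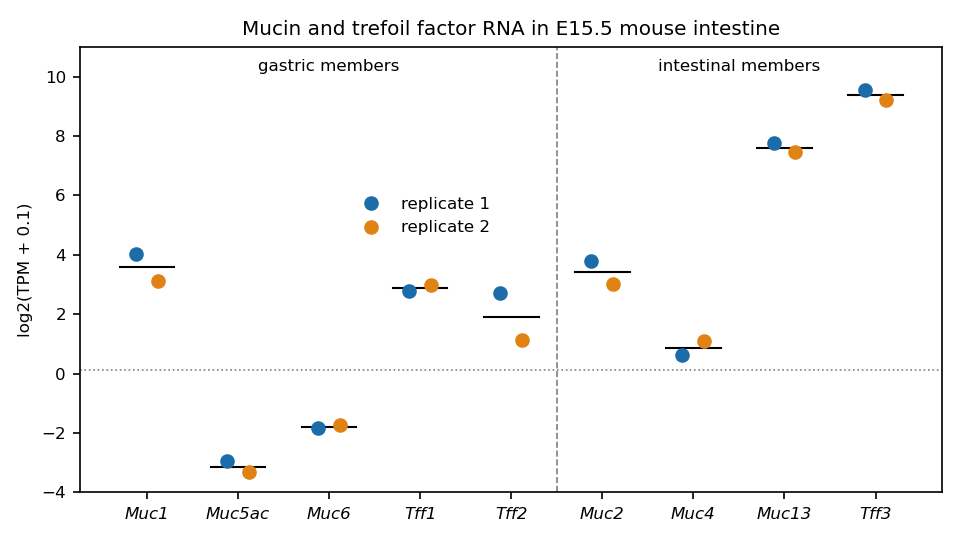
Level of each member in E15.5 intestine as log2(TPM + 0.1), with 1 point per library, a bar at the mean of the plotted values and a dotted line at a TPM of 1. Tff3 and Muc13 stood far above the other 7 members, and the gastric members Muc5ac and Muc6 lay below the dotted line in both libraries.

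Among the trefoil factors, Tff3 dominated. Tff1 (ENSMUSG00000024032.6, chromosome 17, 31161395 to 31165277, minus strand), the peptide of gastric surface cells, had 6.83 and 7.75 TPM in replicates 1 and 2, from 62 and 82 estimated counts. Tff2 (ENSMUSG00000024028.7, chromosome 17, 31141049 to 31144282, minus strand), the peptide of gastric gland cells, had 6.45 and 2.07 TPM from 75 and 28 counts. Tff3 (ENSMUSG00000024029.4, chromosome 17, 31125306 to 31129646, minus strand), the goblet cell peptide, stood at 752 and 595 TPM from 7096 and 6538 counts. That placed it at rank 216 of all gene entries. Replicate 1 was the higher library for Tff2 and Tff3, and replicate 2 for Tff1. Tff3 held 98.3 ± 0.0788% of the TPM of the 3 genes. The gastric trefoil genes had overlapping deposited bounds of TPM in replicate 1 (5.11 to 8.43 for Tff1 and 4.95 to 7.82 for Tff2), while in replicate 2 the bounds were apart (6.04 to 9.31 for Tff1 and 1.37 to 2.88 for Tff2). The files state no level for these bounds, and they do not always hold the TPM itself. For Tff3 in replicate 1 they were 717 to 751, below its 752 TPM. The TPM of Muc13 also exceeded its upper bound in both libraries (217 against 215, and 175.0 against 174.3).

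Among the membrane-bound mucins, Muc13 led by an order of magnitude. Muc1 (ENSMUSG00000042784.5, chromosome 3, 89229057 to 89233381, plus strand), a surface mucin of the stomach and of many simple epithelia, had 16.4 and 8.62 TPM in replicates 1 and 2, from 680 and 439 counts. Muc13 (ENSMUSG00000022824.8, chromosome 16, 33794037 to 33819934, plus strand), a cell-surface mucin of gut epithelium, had 217 and 175 TPM from 14761 and 13885 counts. Muc4 (ENSMUSG00000079620.9, chromosome 16, 32735886 to 32782391, plus strand), a very long surface mucin, had 1.44 and 2.05 TPM from 126 and 172 counts. Replicate 1 was thus the higher library for Muc1 and Muc13, and replicate 2 for Muc4. The 3 genes summed to 210.1 ± 34.5 TPM, and Muc13 held 88.7 ± 2.22% of the TPM of the 6 member mucins.

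Among the gel-forming mucins, only Muc2 was detected. Muc6 (ENSMUSG00000048191.11, chromosome 7, 141633456 to 141655319, minus strand), the mucin of gastric glands, had 0.18 and 0.20 TPM in replicates 1 and 2, from 28 counts (95% exact Poisson interval 18.6 to 40.5) and 36 counts (25.2 to 49.8). Muc5ac (ENSMUSG00000037974.11, chromosome 7, 141788972 to 141819231, plus strand), the mucin of the gastric surface, had 6 counts in replicate 1 (2.20 to 13.1) and 0 in replicate 2, where 3 counts would correspond to a TPM of 0.0118. Muc2 (ENSMUSG00000025515.11, chromosome 7, 141690340 to 141754693, plus strand), the main secreted mucin of goblet cells, had 13.9 and 7.94 TPM from 554 and 327 counts. These intervals and floors cover counting error within 1 library only, and not variation between pools of embryos. The counts are estimated and no molecular identifiers are named in the sources used here, so the intervals may be too narrow even for that error. In whole tissue, fewer cells of a type and less RNA per cell cannot be told apart.

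The level of Muc2 depended on how its transcripts are annotated. The tables hold 8 Muc2 models of 241 to 2926 bases, which fall into 5 stretches of the gene that do not overlap, with 40.0 kb between stretches 4 and 5 that no model covers. The TPM of the gene is the sum over these stretches. In order along the gene, stretch 1, which holds the RefSeq start shown above and the models Muc2-204 and Muc2-203, had 2.79 and 1.63 TPM in replicates 1 and 2, and stretch 2, with Muc2-205, had 2.48 and 1.63. The short stretches 3 and 4, which are Muc2-206 and Muc2-208, had 1.76 and 1.01 TPM and 0.60 and 0.51 TPM, from at most 6 counts each. Stretch 5, at the 3′ end, had 6.24 and 3.15 TPM, of which Muc2-201 had 4.49 and 2.12 and Muc2-207 had 1.75 and 1.03. Every stretch had a higher TPM in replicate 1, and the 3′ stretch was the highest in both libraries. Stretches 3 and 4 show no clear direction, with 6 and 4 counts and with 5 and 5 counts in replicates 1 and 2. Spread over the merged exon length of 7127 bases on the TPM scale, a value chosen after the models were seen, Muc2 stood at 3.29 and 1.67, against 13.9 and 7.94 TPM. On that scale Muc2 moved to place 6 of the 9, behind the gastric members Muc1, Tff1 and Tff2, and the gel-forming mucins summed to 3.44 and 1.81.

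Muc4 was also divided unevenly among its models. Of its 8 models, 4 had no counts in either library, among them the longest coding model, Muc4-201 of 11277 bases. The leading model by TPM was Muc4-202, annotated as a processed transcript of 1348 bases at the 3′ end, with 0.87 and 0.91 TPM in replicates 1 and 2, from 26.1 and 31.6 estimated counts. By counts the leader in both libraries was Muc4-206, a processed transcript of 10805 bases, with 74.3 and 78.5 counts and 0.29 and 0.26 TPM, and the coding models Muc4-205 and Muc4-204 had 0.23 and 0.37 TPM and 0.05 and 0.51 TPM. Models not annotated as coding took 80.6% of the TPM of the gene in replicate 1 and 57.1% in replicate 2. Spread over its merged exon length of 11757 bases, Muc4 stood at 0.451 and 0.529, below a TPM of 1 in both libraries. Muc4 overlaps Muc20, another membrane mucin gene on the opposite strand, which had 0.08 and 0.02 TPM. No source used here says if reads were assigned by strand.

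**Figure D2:**
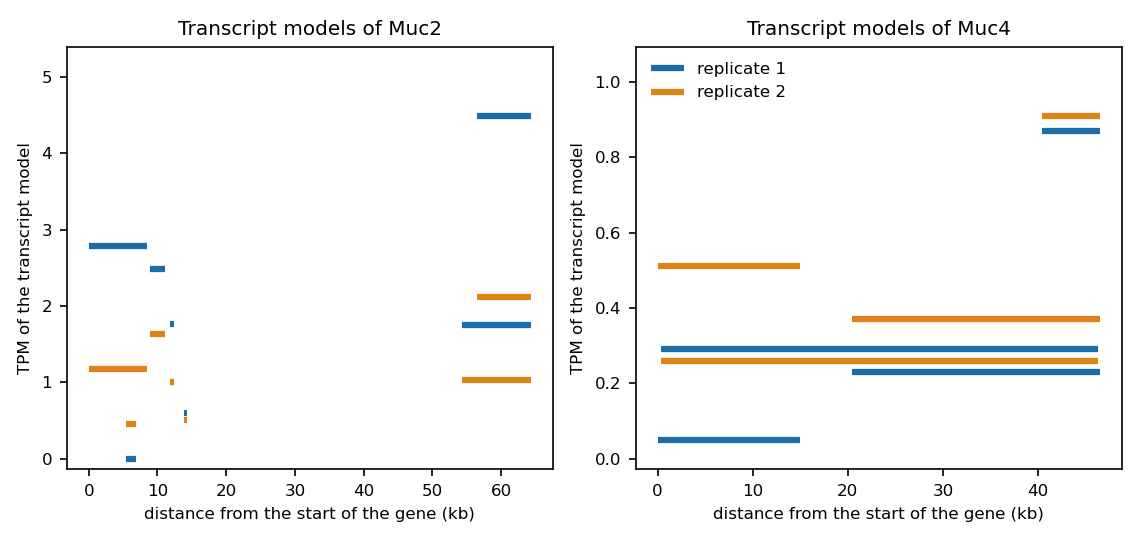
Transcript models of Muc2 and Muc4 with a level above 0 in at least 1 library, drawn from their start to their end in kb from the start of the gene (introns included), at the height of their TPM. Muc2 models form separate stretches with an empty middle, and in both genes the model with the highest TPM lies at the 3′ end in both libraries.

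The other members were simpler. Each trefoil gene has 1 model. For Muc13, the model Muc13-201, which starts at position -122 of the downstream window shown above, took 98.6% and 100% of the TPM in replicates 1 and 2. Muc13-202, which starts at the upstream RefSeq start, took 1.36% in replicate 1 and 0 in replicate 2. For Muc1, the only coding model, Muc1-201, took 76.6% and 82.0%, and the processed transcript Muc1-202 of 476 bases took 23.4% and 15.8%. By counts, Muc1-201 held 645 of 680 in replicate 1 and 423 of 439 in replicate 2, so the short model carried few reads. For Muc6, Muc6-202 took 58.6% and 56.6%, while the rest fell on Muc6-201 in replicate 1 (41.4%) and on Muc6-203 in replicate 2 (43.4%). By counts the longer models led, Muc6-201 with 15.34 against 12.66 for Muc6-202 in replicate 1, and Muc6-203 with 20.55 against 15.45 in replicate 2. The Muc6 models start 74 and 85 bases downstream of the RefSeq start shown above. The 6 Muc5ac counts of replicate 1 fell on Muc5ac-202 (55.7% of the TPM of the gene) and Muc5ac-203 (44.3%).

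Neighbouring genes differed widely in level. The 4 mucin genes of chromosome 7 span 240 kb (141633456 to 141873084). Within it Muc6 averaged 0.19 ± 0.0141 TPM and Muc2, 35.02 kb away on the other strand, 10.9 ± 4.20 TPM. Muc5ac, 34.3 kb from Muc2, and Muc5b, a gel-forming mucin of the airways, both averaged 0.015 TPM. The next gene beside Muc6, the clathrin adaptor gene Ap2a2, averaged 64.4 ± 1.88 TPM. The 3 trefoil genes span 40.0 kb of chromosome 17 (31125306 to 31165277) on 1 strand. There Tff1 averaged 7.29 ± 0.651 TPM. Tff2 averaged 4.26 ± 3.10 TPM and Tff3, 11.4 kb away from it, 673 ± 111 TPM. The outer neighbours were the sterol transporter gene Abcg1 at 7.54 ± 0.375 TPM and the serine protease gene Tmprss3 at 0.0400 ± 0.0141 TPM. Around Muc13, the coding neighbours Heg1 and Itgb5 averaged 17.2 ± 0.0566 and 30.0 ± 1.23 TPM, and the overlapping antisense gene Gm15657 had 2.62 and 2.85 TPM. Muc4 lies between the kinase gene Tnk2 at 6.55 ± 0.544 TPM and Smbd1 at 0.680 ± 0.255 TPM. Muc1 lies between Mtx1 at 182 ± 3.90 TPM and Trim46 at 2.93 ± 0.665 TPM.

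**Figure D3:**
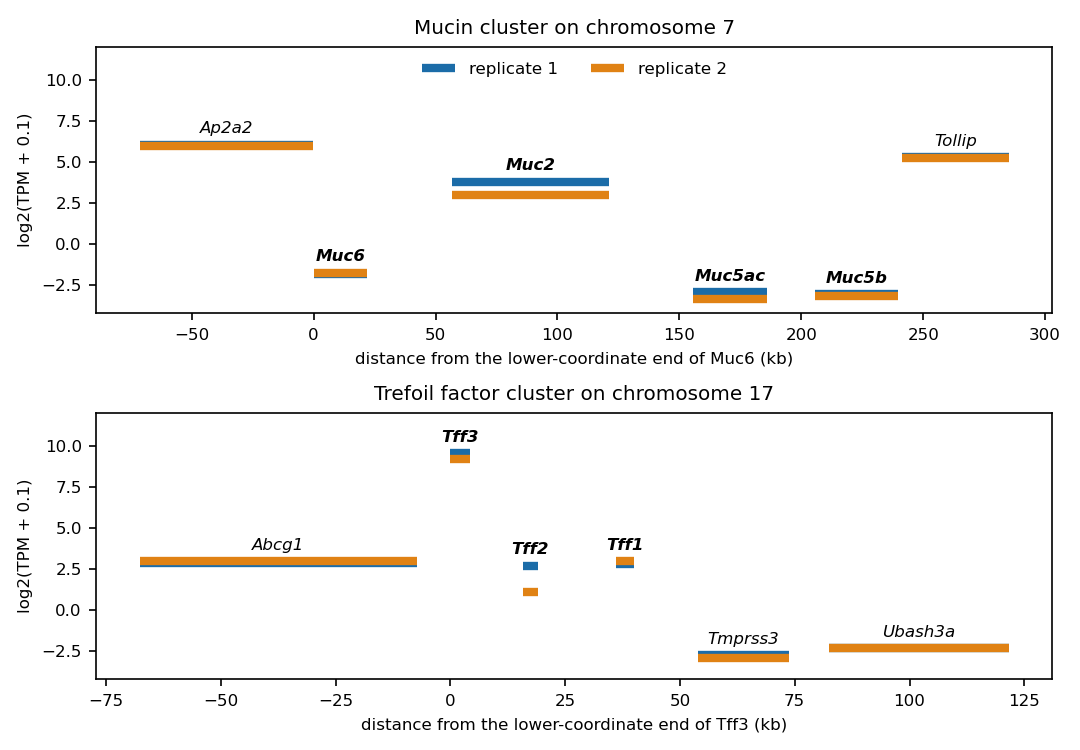
Level of the genes in and beside the mucin cluster and the trefoil cluster as log2(TPM + 0.1), with each gene drawn over its own extent in kb from the lower-coordinate end of Muc6 or Tff3, and members of the cluster in bold. Muc2 stands above Muc6, Muc5ac and Muc5b, and Tff3 above Tff2 and Tff1, in both libraries.

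The libraries differed most for Tff2, Muc1 and Muc2. Of the 7 detected members, 3 were over 1.5-fold higher in replicate 1, compared with 2.38% of all 14986 detected genes, and none was over 1.5-fold higher in replicate 2, compared with 1.33%. As log2 ratios of replicate 1 over replicate 2, with 0.1 added to each TPM, the values were 1.59 for Tff2, 0.92 for Muc1 and 0.80 for Muc2. They were 0.34 for Tff3 and 0.31 for Muc13. Tff1 and Muc4 had the opposite sign, at -0.18 and -0.48. From counts scaled to each library's total on genes (CPM), the log2 ratio was 1.67 for Tff2 (95% exact interval 1.02 to 2.35), 0.88 for Muc1 (0.70 to 1.05) and 1.01 for Muc2 (0.81 to 1.21), intervals that cover counting error only. The interval included 0 for Tff1 (-0.66 to 0.34), Muc4 (-0.55 to 0.14) and Muc6 (-0.88 to 0.64). Over all detected genes the central 90% of the TPM-based log2 ratios lay between -0.34 and 0.38. Among the gastric members, Tff2 and Muc1 were thus higher in replicate 1, Tff1 and Muc6 were not, and Muc5ac had 6 counts in replicate 1 and 0 in replicate 2, a count-based log2 ratio with a lower 95% bound of 0.48.

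Levels of other gene lists were also compared between the libraries. Of 14 genes of pancreatic acinar cells, which make digestive enzymes, 13 were detected, and all 13 were over 1.5-fold higher in replicate 1. Their summed level was 6797 and 2453 TPM in replicates 1 and 2, with Ctrb1 and Amy2a5 the highest, and the lipase gene Pnlip was below a TPM of 1. Of 13 stomach epithelium genes 3 were detected, and 9 were below 1 in both libraries. Their sum was 12.8 and 8.93 TPM in replicates 1 and 2. The highest were the stomach claudin gene Cldn18 (4.03 and 2.01), the hormone gene Gast (1.97 and 1.79), the protease gene Ctse (1.78 and 0.72) and the proton pump gene Atp4a (1.36 and 1.08). The gastrokine genes Gkn1 and Gkn2 had 0.19 and 0.35 TPM and 0.18 and 0 TPM. Of 6 genes listed for stomach mesenchyme 5 were detected, with sums of 146 and 168 TPM, led by Sfrp2, Sfrp1, Isl1 and Nkx3-2. Most of these sums lay in Sfrp2 (78.0 and 91.1 TPM) and Sfrp1 (56.9 and 64.0). They therefore do not measure how much stomach mesenchyme was present. The homeobox gene Barx1 had 1.06 and 1.21 TPM, and Nkx2-5 was below 1. The part of pancreatic or stomach tissue in the ratios of Tff2, Muc1 and Muc2 was not tested.

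The summed level of gut epithelium genes differed little between the libraries. All 15 of these marker genes, led by Fabp1, Lgals4, Cldn7 and Krt8, were detected and none was over 1.5-fold apart. Such a difference was rare over all detected genes too, at 2.38% higher in replicate 1 and 1.33% in replicate 2. Of the 15 genes, 12 were higher in replicate 1 by any amount, compared with 44.5% of all detected genes. The summed level of the 15 was 7597 and 6982 TPM in replicates 1 and 2, a log2 ratio of 0.12. Per 1000 TPM of that sum, Muc1 stood at 2.16 and 1.23, Tff2 at 0.849 and 0.296, Muc2 at 1.83 and 1.14, Muc13 at 28.5 and 25.1, and Tff3 at 98.9 and 85.2. All 8 genes of bile and pancreatic duct, led by Krt19, Krt7, Spp1 and Sox9, were detected and none was over 1.5-fold apart, with sums of 907 and 873 TPM. None of 8 airway genes was detected, 4 of them, Sftpb, Scgb1a1, Nkx2-1 and Bpifa1, being at 0 in both libraries, with sums of 0.91 and 0.77 TPM. Of 6 squamous epithelium genes only Krt14 was detected, with list sums of 9.02 and 11.1 TPM. All 6 mesothelium genes, led by Aldh1a2, Upk3b, Msln and Upk1b, were detected, with sums of 163 and 166 TPM.

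**Figure D4:**
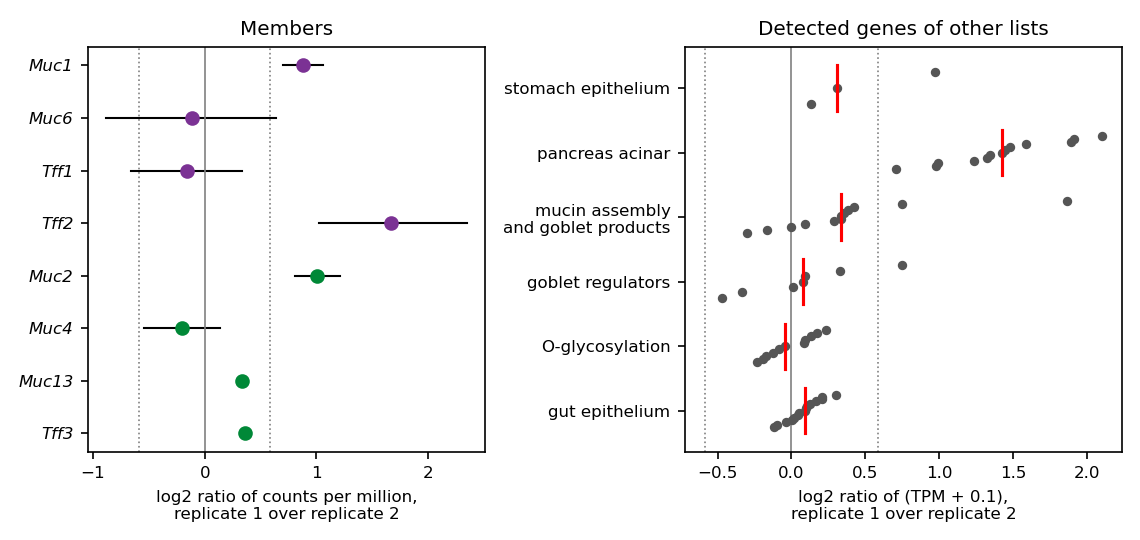
Left, log2 ratio of CPM in replicate 1 over replicate 2 for 8 members (gastric in purple, intestinal in green; Muc5ac, with no count in replicate 2, is not drawn), with 95% exact counting intervals. Right, log2 ratio of (TPM + 0.1) for the detected genes of 6 lists, with the median in red. Dotted lines mark a 1.5-fold difference. Tff2, Muc1 and Muc2 lie to the right of it, as do all 13 detected acinar genes.

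The genes that package and release mucins were all present, at levels that ranged widely. All 12 genes of mucin assembly and goblet secretion were detected, and 9 were higher in replicate 1, compared with 44.5% of all detected genes. The lowest were Sytl2 at 3.71 ± 0.559 TPM, Ern2 at 4.45 ± 0.841 and Kcnma1 at 4.92 ± 0.00707, chosen after their values were seen. The list was led by the secreted peptide gene Spink4 (293 ± 48.1 TPM), the disulfide isomerase gene Agr2, which is needed to make Muc2 (222 ± 36.0), the secretory regulator gene Xbp1 (205 ± 9.44) and the mucus protein gene Fcgbp (95.3 ± 16.6). Their log2 ratios of replicate 1 over replicate 2 were 0.34, 0.33, 0.09 and 0.36, beside 0.34 for Tff3. Zg16, a protein of goblet granules and of pancreatic zymogen granules, and Clca1, a secreted goblet product, both singled out after their values were seen, were over 1.5-fold higher in replicate 1, with log2 ratios of 1.87 and 0.75, beside 0.80 for Muc2. All 7 goblet regulators were detected, led by Foxa3 (23.0 ± 1.05 TPM), Spdef (14.8 ± 2.38), Klf4 (9.06 ± 1.51) and Atoh1 (7.30 ± 0.0283). Of these 7 only Gfi1, at 1.80 and 1.03 TPM, was over 1.5-fold higher in replicate 1.

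Most enzymes that add and extend mucin sugars were detected. Of 14 O-glycosylation genes 11 were detected, and none was over 1.5-fold apart between the libraries. Over all detected genes, 2.38% were over 1.5-fold higher in replicate 1 and 1.33% in replicate 2. The highest were the N-acetylgalactosaminyltransferase genes Galnt2 (51.0 ± 4.36 TPM), Galnt1 (48.8 ± 4.60) and Galnt7 (25.1 ± 0.580) and the core 1 chaperone gene C1galt1c1 (49.5 ± 2.12). Of the genes that extend the first sugar, C1galt1 had 3.07 and 2.71 TPM in replicates 1 and 2, Gcnt1 averaged 3.92 ± 0.460 TPM, Gcnt3 had 7.42 and 6.98 TPM in replicates 1 and 2, and B3gnt3 had 17.9 and 16.9, named after their values were seen. The 3 genes of the list below a TPM of 1 were B3gnt6, St6galnac1 and A4gnt. B3gnt6, which makes the core 3 structure of intestinal mucins, had 0.06 and 0.05 TPM in replicates 1 and 2. St6galnac1, which adds sialic acid, had 0.05 and 0.04. A4gnt, the enzyme of the sugar caps typical of gastric gland mucin, had 0.77 and 0.80. Of 10 other mucin genes measured, 4 were detected, of which Muc3a, a membrane mucin of enterocytes, stood at 12.8 ± 0.134 TPM and Muc3 at 3.51 ± 0.445. The others detected were Cd164 (138 and 155 TPM), which many cell types express, and Emcn (17.1 ± 1.13), a mucin-like gene of endothelium. Below a TPM of 1 were Muc5b, Muc15, Muc19, Muc20, Mucl1 and Mucl2, of which Muc19 and Mucl1 were at 0 in both libraries. Against these, Muc13 was the most abundant of the 16 mucin and mucin-like genes measured.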

How the data were processed

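Total RNA from E15.5 mouse intestine was sequenced in 2 libraries, biological replicates 1 and 2 per the labels, of 34406872 and 40669822 estimated counts, of which 33665128 and 39953610 fell on Ensembl genes. Spike-ins took 2.16% and 1.76%. Per the file headers, the authors' tables give expected counts (estimated, not whole), and TPM and FPKM derived from them, per gene and per transcript. The deposited lower and upper bounds of TPM, whose level the files do not state, were handled as a score, and the percent of a gene on each transcript was used as deposited. Per the deposited readme, reads were placed on mm10 with GENCODE M4. The sources used here name no aligner, quantifier, strand setting or ribosomal RNA treatment. Per the labels' protocols, extraction used mirVana, and the manual of a SMARTer Ultra Low RNA kit is listed.

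Symbols and positions came from GENCODE M21 (GRCm38, the same assembly) by identifier without version. For all 9 members, 0.1 was added to TPM before logs, and ratios run replicate 1 over replicate 2. Lengths were kept as deposited where a gene has 1 model, and otherwise exons were merged. Counting intervals are 95% and exact, and a floor is 3 counts. Words of 31 bases from M21 transcripts were used to look for shared sequence. Tools were Python 3.11.15, scipy 1.17.1, R 4.3.3, edgeR 4.0.16 (TMM factors from rounded counts) and DESeq2 1.42.0 (size factors), the last 2 for alternative scaling only. The ratio was tested on simulated data.

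The members, the 12 other gene lists and the rule for named genes were chosen with earlier results of these data known. The rule names every member, models with at least 5% of a gene, nearest coding and overlapping genes, and the 4 highest of a list, of which 1 gene is not reported here. No most-alike gene is named, since 2 libraries give no pattern. Muc16, Muc17 and Muc21 were not analysed here.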

Additional observations from a re-analysis of the deposited data

How the results depend on the processing

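The difference of gastric minus intestinal members lay between -5.49 and -0.048 under 13 alternatives, against -3.41 ± 0.74. FPKM and TPM summed over transcripts (-3.40 and -3.41) restate the same levels, so they could not have changed its sign. The difference was -2.65 without members under a TPM of 0.5 and -5.37 without Muc1. In alternatives chosen after seeing the data, it was -4.59 with means in place of medians, -2.34 over merged exon length and -5.49 without Muc2. Without Tff3 and Muc13, also chosen after seeing the data, it was -0.048, which is no difference beside that SD. Each replicate alone gave -4.11 to -3.07. The count of 3 members over 1.5-fold higher in replicate 1 was 1 at 2-fold. By expected counts, the share of Tff3 among trefoil factors was 98.2% and that of Muc13 among member mucins 92.4%, and over merged exon length Muc13 held 93.7%. The transcript that leads by TPM held, by expected counts, 95.6% for Muc1, 44.1% for Muc6, 36.3% for Muc2 and 19.5% for Muc4, and by posterior mean TPM 74.6% for Muc1 and 36.4% for Muc4. By counts other models led for Muc4 (Muc4-206) and Muc6 (Muc6-201 in replicate 1, Muc6-203 in replicate 2). Divided by the summed acinar TPM, an alternative chosen after seeing the data, the log2 ratios of Muc1 and Muc2 turned to -0.54 and -0.66, those of Muc13 and Tff3 to -1.16 and -1.13, and that of Tff2 was 0.17. By construction this subtracts the acinar ratio of 1.47, and under the other 8 settings Muc1, Muc2 and Tff2 stayed between 0.68 and 1.66. Over merged exon length the levels of Muc2, Muc4 and Muc6 were 2.48, 0.490 and 0.133. No paired analysis was possible because there is 1 group.

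Depth limits the low members most. Muc5ac and Muc6 rest on at most 36 counts a library, and Tff1 and Tff2 on 28 to 82, so small differences among them were not detectable. The level of the 2 genes with fragmentary models depends on the annotation.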

Other observations

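Shared sequence was low for most members. No word of 31 bases from the longest models of Muc1, Muc6, Muc2, Tff2 and Tff3 occurred in transcripts of another gene. For Tff1, 24.5% of words also lay in other genes, chiefly Gm15318, an antisense gene over the same locus that had 0.07 and 0.05 TPM in replicates 1 and 2. The later annotation used for this search gives Tff1 a model of 703 bases, against 478 bases in the deposited tables. For Muc13, 4.90% of words of its longest model, Muc13-202, lay in other genes. That model took only 1.36% and 0% of the Muc13 TPM in replicates 1 and 2. Over all Muc13 models, words were shared with 2701 other genes. For Muc4 the share was 2.62%, chiefly in Muc20, and for Muc5ac 0.242%, in Muc5b. Words repeated within the same transcript made up 24.3% of Muc5ac, 18.5% of Muc4, 15.8% of Muc13 and 15.7% of Muc6. There were none in Muc2-207, the longest Muc2 model, which covers only the 3′ stretch of the gene. The 40.0 kb of Muc2 that no model covers could not be searched, so Muc2 cannot be compared with the others here.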
